A study of Mus musculus with 6 samples.

Results

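The cells described here are germinal centre (GC) B cells in the G1 phase of the cell cycle, compared between the light zone (LZ) and the dark zone (DZ) of the germinal centre. They were chosen by the deposited call of each cell, as cells called G1 with a zone call of LZ or DZ. Of 38651 cells in 6 libraries, 15218 met this rule (39.4%), of which 11192 were called LZ and 4026 DZ (26.5% of the 15218). A further 919 G1 cells had an unknown zone and 22241 LZ or DZ cells were called S or G2/M. UMI counts were summed over the G1 cells of each zone of each library, and both zones of a library were compared with each other, so that the library and not the cell was the replicate.

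All libraries held splenic B cells that were sorted from mice given an NP-coupled antigen in alum and captured with 10x 5′ chemistry. The Chimaera KO library came from irradiated Ccl19Cre/+ Il4raf/f hosts and the Chimaera control library from irradiated Il4ra+/+ hosts, both rebuilt with wild type bone marrow and sorted at day 14 as B220+ CD95hi GL7hi IgD- cells. The sorted cells were therefore expected to be of donor origin, though the gate as given names no donor marker. The Cre acts in Ccl19-expressing stromal cells of the host, and cells of the host that survive irradiation limit the model. The Day14 libraries (2) held wild type cells of the same gate at day 14, and the Day7 libraries (2) held wild type B220+ CD38- GL7hi cells at day 7. Ages of the mice were not given in the sources used here. Nothing in the labels says that same-named libraries came from separate animals, so that p-values measure the spread between these libraries.

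A GC is divided into a dark zone, where B cells divide and mutate their antibody genes, and a light zone, where they take up antigen from follicular dendritic cells and present it on MHC class II to T cells that carry CD40 ligand. Cells that receive help induce MYC, enter the cell cycle and return to the dark zone, guided by CXCR4, or leave as memory B cells or plasma cells. Because DZ cells divide more, a comparison of all cells mixes zone with cell division, and the comparison within G1 asks what distinguishes the zones among cells of 1 phase.

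Each library gave 372 to 3037 LZ cells and 106 to 1250 DZ cells in G1, with 5625296 to 15864242 UMIs summed for LZ and 1838162 to 4334594 for DZ. The number of LZ cells per DZ cell was 2.43 to 3.51. Median UMIs per cell did not differ by zone in 1 direction: the mean log2 ratio was -0.04 ± 0.24 (SD, n = 6 libraries), LZ was higher in 2 of 6, and the exact sign-flip test gave p = 0.6875. Libraries shared at most 1.54% of the barcodes of the smaller one. The B cell genes Ms4a1 (CD20) and Cd79a were present in every sum of both zones, at 923 CPM (UMIs of a gene per 1000000 UMIs of its sum, TMM-scaled) or more. Among markers of other cells, the T cell gene Cd3e reached at most 2.65 CPM in LZ and 1.04 CPM in DZ, the myeloid gene Lyz2 at most 51.2 CPM in LZ and 5.11 CPM in DZ, and none of the stromal list passed the filter on low counts.

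The calls were checked against marker genes of both zones. Cd83, an activation marker of LZ cells, had a lowest, median and highest level of 332, 367 and 857 CPM in LZ and of 93.4, 119 and 315 CPM in DZ. The groups did not overlap, and the fitted log2 difference, LZ minus DZ, was 1.62 ± 0.07 (SE, adjusted p = 8.9e-12). Cxcr4, the receptor that holds cells in the dark zone, stood at 11.7, 45.9 and 75.9 CPM in LZ and at 29.8, 101 and 146 CPM in DZ. Its ranges overlapped, with both Chimaera libraries low in both zones, yet LZ was lower in 6 of 6 libraries (log2 -1.14 ± 0.06, adjusted p = 3e-10). How the zone and phase calls were made is not stated in the sources used here. They may rest on transcripts of the same cells, so genes behind the calls differ by construction and a p-value says how far the libraries agree.

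**Figure D1:**
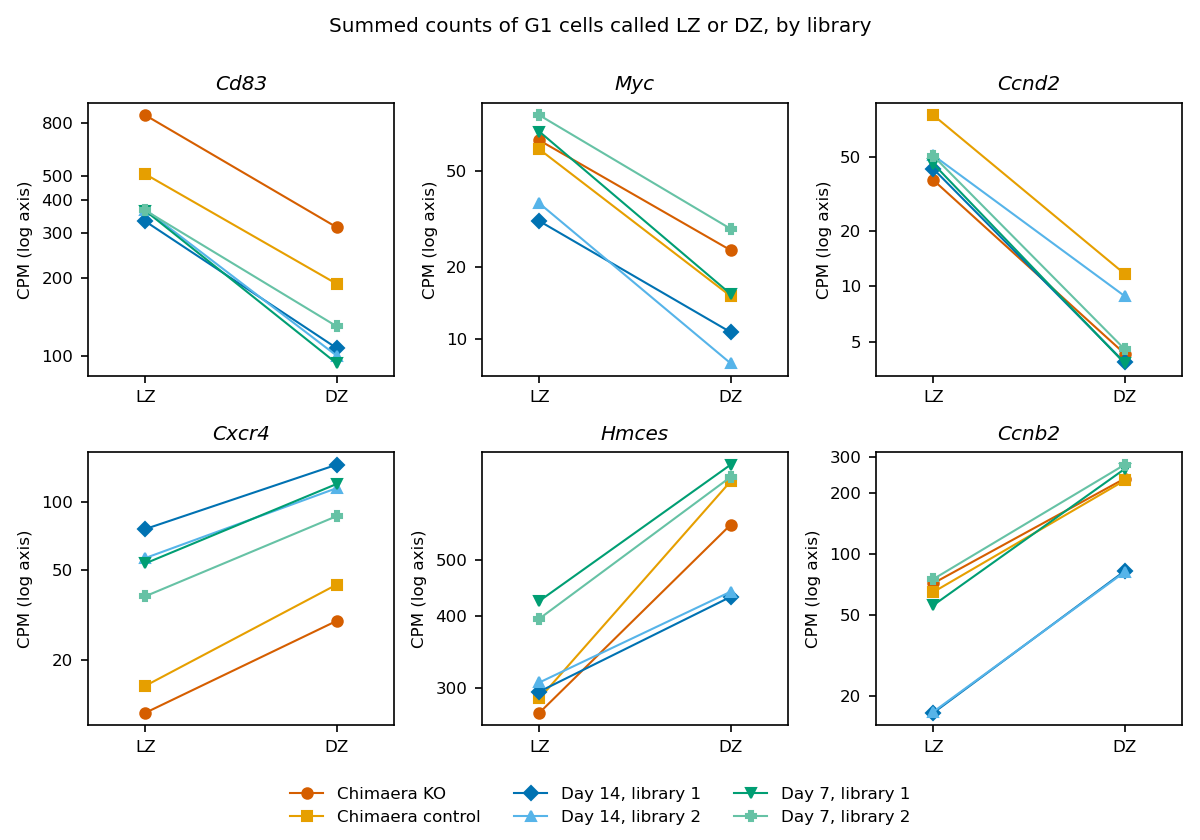
Level of 6 genes (CPM after TMM scaling, log axis) in the summed G1 cells called LZ (left) and DZ (right), with 1 line per library. Cd83, Myc and Ccnd2 were higher in LZ in every library and Cxcr4, Hmces and Ccnb2 were lower, while the libraries differed in level, as for Cxcr4 between the Chimaera and the other libraries.

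Most of what the G1 call left between the zones was small in size. Of 9582 genes tested, 1995 were higher in LZ (20.8%) and 1968 lower (20.5%), 41.4% in all, at an adjusted p under 0.05 in edgeR's quasi-likelihood test. The median absolute log2 difference of these genes was 0.38. At a threshold that asks for a change over 0.5 log2, 371 genes were higher (3.87%) and 208 lower (2.17%), 6.04% in all. With every cell thinned to 1000 UMIs, 744 genes were higher (10.6%) and 669 lower (9.57%), 20.2% in all. By data set, 1772 genes were higher (18.5%) and 1414 lower (14.8%) in the Chimaera libraries (33.2% in all), 1197 (12.5%) and 1555 (16.2%) in the Day14 libraries (28.7%) and 1294 (13.5%) and 1297 (13.5%) in the Day7 libraries (27.0%). The 6 LZ sums lay wholly above the 6 DZ sums for 170 of the called genes and wholly below for 120, where 1.78% and 1.26% of all tested genes showed each pattern. Among called genes of at least 20 CPM with 1 sign in 6 of 6 libraries, the largest reported differences upward were in Ccnd2, Prg2, Il4i1, Slpi, Nfkbid and Rilpl2, and the largest downward in Cdkn3, Ccnb2, Cdc20, Cdca8, Cdca3 and Hmmr. In summed counts, fewer cells expressing a gene and less RNA of it per cell cannot be told apart.

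**Figure D2:**
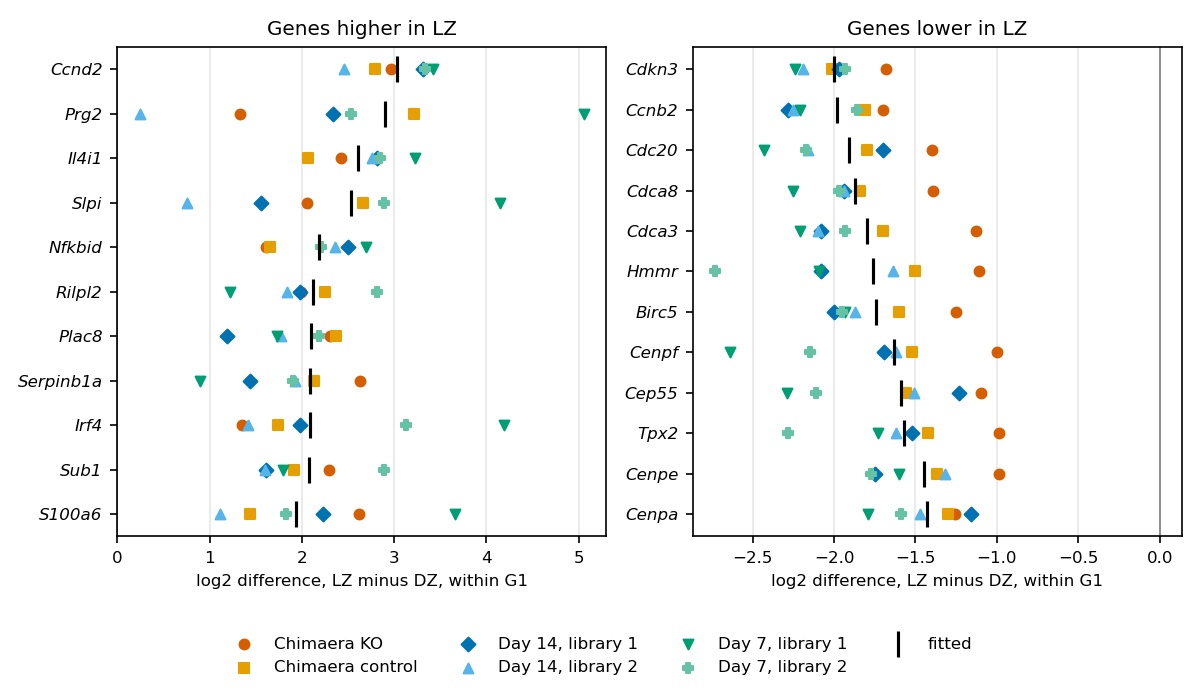
Log2 difference, LZ minus DZ, within G1 for reported genes among the 12 with the largest fitted differences in each direction (of those called, with 1 sign in 6 of 6 libraries and at least 20 CPM on average), with 1 point per library and a bar for the fitted value. Prg2, Slpi and Irf4 spread over more than 2 log2 units between libraries, while Ccnb2 and Cdkn3 stayed within 1 unit.

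Genes of B cell activation were higher in LZ. Of 18 tested members of the light zone activation list, 14 rose, 1 fell (Lmo4) and the median log2 difference was 0.80, against -0.00 over all tested genes. Il4i1, which encodes a secreted amino acid oxidase, had 155, 229 and 595 CPM in LZ and 21.7, 28.1 and 111 CPM in DZ as lowest, median and highest level. The groups did not overlap (log2 2.61 ± 0.10). Cd86, a costimulatory ligand for T cells, stood at 71.9, 87.4 and 108 CPM in LZ and at 45.6, 54.6 and 61.6 CPM in DZ, also without overlap (log2 0.69 ± 0.07, adjusted p = 6.4e-07). Fcer2a, the low-affinity IgE receptor CD23, differed by 1.54 ± 0.07 and Cd52, a small surface glycoprotein, by 0.91 ± 0.04. Cd24a, another surface glycoprotein, did not pass the threshold (log2 -0.07, adjusted p = 0.36).

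Targets and components of CD40 and NF-kB signalling were higher in LZ in 19 of 23 tested genes and lower in none, with a median log2 difference of 0.70. This pathway ends in REL family dimers that enter the nucleus when their inhibitor IkB is degraded, and IkB genes are themselves targets of the dimers. Nfkbia, which encodes IkB-alpha (GRCm38, chromosome 12, 55489410 to 55492647, minus strand), stood at 320, 362 and 481 CPM in LZ and at 131, 157 and 225 CPM in DZ. The groups did not overlap (log2 1.20 ± 0.06, adjusted p = 3.5e-11). Nfkbid, a nuclear IkB family member, had 31.1, 48.4 and 107 CPM in LZ and 4.40, 15.3 and 19.9 CPM in DZ (log2 2.19 ± 0.11). The subunit gene Rel, at 0.42 ± 0.06, the adhesion ligand gene Icam1, at 0.70 ± 0.05, and the adaptor gene Traf1, at 0.25 ± 0.05, differed less. The 10-base NF-kB motif was sought on both strands of the promoter window, from 250 bases before to 50 after the start. It was found in 9 of 19 list members with a window (47.4%), 11.8% of all tested genes with one and 8.46% of all windows. Among genes higher in LZ by over 0.5 log2 it was found in 41 of 285 (14.4%), and among those lower in 10.7%. A gene counted if any of its windows matched, so the share of all windows is another measure. The list holds targets of the pathway by choice, so its share is not a result of the zone comparison. A match is a description of letters and not a binding site. The window of Nfkbia is shown as the list member with the highest level, with the match in capitals (RefSeq, GRCm38.p6, chr12:55492598-55492897, minus strand, 5′ to 3′ of the gene).
Nfkbia: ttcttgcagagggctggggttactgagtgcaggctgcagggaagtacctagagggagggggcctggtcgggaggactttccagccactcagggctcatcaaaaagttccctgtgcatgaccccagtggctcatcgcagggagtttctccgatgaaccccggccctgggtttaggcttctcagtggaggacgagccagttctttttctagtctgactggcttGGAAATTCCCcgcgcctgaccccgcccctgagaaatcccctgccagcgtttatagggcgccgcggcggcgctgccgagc

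Immediate early genes, which B cells induce within a short time of receptor or CD40 signals, were higher in LZ for 14 of 19 tested members and lower for 1 (Klf6), with a median of 0.63. Dusp2, a phosphatase that turns off MAP kinases, stood at 185, 230 and 270 CPM in LZ and at 103, 120 and 153 CPM in DZ, without overlap (log2 0.90 ± 0.07). Zfp36l1, an RNA-binding protein that speeds mRNA decay, stood at 301, 373 and 442 CPM in LZ and at 227, 258 and 297 CPM in DZ, again without overlap (log2 0.51 ± 0.05). Genes of the B cell receptor itself moved less: 11 of 22 rose and 3 fell, with a median of 0.16. Cd79a, a signalling chain of the receptor, differed by 0.27 ± 0.04 and Blnk, an adaptor below it, by -0.12 ± 0.04 (adjusted p = 0.032).

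Antigen presentation genes rose together. All 12 tested members of the MHC class II list were higher in LZ, with log2 differences of 0.22 to 0.81 and a median of 0.50. H2-Aa, the alpha chain of I-A, stood at 1290, 3950 and 5450 CPM in LZ and at 739, 2400 and 3060 CPM in DZ. These ranges overlapped, with libraries at different levels, but LZ was higher in 6 of 6 (log2 0.81 ± 0.04, adjusted p = 4.6e-11). H2-Ab1, the beta chain, and H2-Eb1, the beta chain of I-E, both differed by 0.52 ± 0.04.

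Of the receptors for cytokines, BAFF and TNF family ligands, 16 of 21 rose and 2 fell (median 0.54). Tnfrsf13c, the BAFF receptor needed for B cell survival, stood at 337, 498 and 537 CPM in LZ and at 205, 302 and 392 CPM in DZ (log2 0.62 ± 0.05). Il21r, the receptor for the T follicular helper cytokine IL-21, differed by 0.58 ± 0.06. Il17ra was lower in LZ in 5 of 6 libraries (log2 -0.31 ± 0.07, adjusted p = 0.0011). The list of IL-4 and STAT6 response genes overlaps the activation list in Il4i1 and Fcer2a, and 13 of its 14 tested members rose while Pim1, a kinase gene, fell (log2 -0.19 ± 0.06, adjusted p = 0.013). Within Day7 alone Pim1 stood at 0.03. Il2rg, the chain shared by the IL-4 and IL-21 receptors, differed by 0.92 ± 0.05.

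The growth regulator gene Myc and the cyclin D2 gene Ccnd2 were higher in the G1 cells of the light zone. Myc stood at 30.9 to 84.9 CPM in LZ and at 7.95 to 28.7 CPM in DZ, without overlap (log2 1.78 ± 0.09, adjusted p = 1.1e-10). Ccnd2, which drives the exit from G1, had 37.5, 48.2 and 84.0 CPM in LZ and 3.85, 4.46 and 11.7 CPM in DZ, the largest upward difference among the named genes (log2 3.03 ± 0.11, adjusted p = 2e-12). At least 1 UMI of Ccnd2 was found in 7.61 to 20.2% of LZ cells and 1.36 to 4.53% of DZ cells, while Cd3e, used as a gene that B cells lack, was found in at most 0.269% of LZ cells and 0.467% of DZ cells. Ccnd3, the D cyclin that sustains division in the dark zone, went the other way, at 207, 264 and 366 CPM in LZ and 284, 400 and 507 CPM in DZ (log2 -0.51 ± 0.05, adjusted p = 1.4e-07). Both D cyclins kept their direction in 6 of 6 libraries.

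Genes of ribosome making and growth, many of them MYC targets, were higher in LZ in 20 of 26 cases but by little, with a median of 0.21. Npm1, a nucleolar chaperone, differed by 0.22 ± 0.05 and Eif5a, a translation factor, by 0.15 ± 0.04, both with LZ higher in 6 of 6 libraries. Ran, the GTPase of nuclear transport, was the 1 member that fell (log2 -0.29 ± 0.04). Of 9 tested genes of the MYC network, 4 rose and 1 fell, Mxd3 (log2 -1.36 ± 0.16), which encodes a MAX partner that can oppose MYC, and its partner gene Max did not pass the threshold (log2 0.12, adjusted p = 0.061).

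Of 12 tested members of the dark zone list, 8 were lower in LZ, of which Bub1b, a spindle checkpoint kinase gene, is also on the G2/M list used here (log2 -1.16 ± 0.10). Tubb2b, a tubulin gene, was the 1 that rose, and the list's median was -0.63. Foxo1, a transcription factor of the dark zone programme, differed by -0.28 ± 0.05 (adjusted p = 0.00022) and Bcl6, the master regulator of the GC, by -0.33 ± 0.06 (adjusted p = 0.00024). Of the other factors, Mef2c was higher in LZ without overlap, at 553, 591 and 641 CPM in LZ against 425, 466 and 507 CPM in DZ (log2 0.36 ± 0.04).

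Genes of antibody gene mutation and the DNA repair tied to it were lower in LZ in 11 of 24 cases and higher in 1 (Apex1, an abasic site nuclease), with a median of -0.24. Hmces, which shields abasic sites, stood at 272, 301 and 425 CPM in LZ and at 432, 631 and 732 CPM in DZ. The ranges did not overlap (log2 -0.84 ± 0.08, adjusted p = 1.2e-07). Neil1, a DNA glycosylase, differed by -0.71 ± 0.05 and Mbd4, another glycosylase, by -0.44 ± 0.05. Ung, a uracil glycosylase, did not pass the threshold (log2 0.09 ± 0.08, adjusted p = 0.40). Chromatin genes were mixed, with 6 of 24 higher and 11 lower, among them Smarca4, the ATPase of BAF complexes, at 154, 186 and 285 CPM in LZ and 276, 358 and 506 CPM in DZ (log2 -0.89 ± 0.05).

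Genes that position B cells were higher in LZ for 10 of 17 genes and lower for 4, with a median of 0.44. Ltb, a TNF family ligand, stood at 592, 880 and 1250 CPM in LZ and at 482, 611 and 1030 CPM in DZ. The ranges overlapped, and LZ was higher in 6 of 6 libraries (log2 0.36 ± 0.05). Gnai2, an inhibitory G protein below chemokine receptors, fell (log2 -0.25 ± 0.05), and Rgs13, which dampens such signals in GC B cells, did not pass the threshold (log2 -0.14, adjusted p = 0.065).

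Cell division transcripts remained unequal after the G1 call. All 40 tested members of the G2/M list were lower in LZ (median -1.16) and 29 of 32 of the S phase list (median -0.41), with 0 higher on either. Ccnb2, the mitotic cyclin B2, stood at 16.6, 60.6 and 75.4 CPM in LZ and at 81.6, 233 and 275 CPM in DZ, without overlap (log2 -1.98 ± 0.07, adjusted p = 2e-12). Cdca8, the chromosomal passenger protein borealin, had 32.6, 39.7 and 76.6 CPM in LZ and 126, 171 and 211 CPM in DZ, also without overlap (log2 -1.87 ± 0.08). Cdc20, the activator of the anaphase-promoting complex, had 6.82, 16.8 and 39.8 CPM in LZ and 28.2, 83.6 and 107 CPM in DZ, with ranges that overlapped (log2 -1.91 ± 0.10). The kinetochore genes Cenpf, Cenpe and Cenpa differed by -1.63, -1.45 and -1.43, the spindle factor Tpx2 by -1.57 and the CDK-binding phosphatase Cdkn3 by -2.00.

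The S phase and G2/M lists (72 genes) took 0.394 to 0.560% of the UMIs of LZ cells in G1 and 0.666 to 0.989% of those of DZ cells in G1. The log2 ratio averaged -0.82 ± 0.09 (SD, n = 6) and was below 0 in 6 of 6 libraries, with an exact sign-flip p of 0.03125, the smallest that 6 libraries can give. Among cells called S or G2/M the same share was 1.05 to 1.32% in LZ and 1.65 to 1.86% in DZ, shares that the phase call may itself set apart from those in G1. Thinning every cell to 1000 UMIs left the G1 ratio at -0.80. At least 1 UMI of Mki67, the proliferation marker Ki-67, was found in 40.7 to 62.9% of LZ cells and 61.3 to 88.3% of DZ cells in G1, or 9.68 to 25.2% and 19.6 to 47.2% after thinning.

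More often than all tested genes, genes lower in LZ by over 0.5 log2 held in their promoters the letters of 2 late cell cycle motifs. These are the CHR, TTTGAA, a site of the MuvB complexes that repress such genes in resting cells, and the CCAAT box bound by NF-Y. TTTGAA was present, on either strand, in the window of 61 of 159 genes lower by over 0.5 log2 (38.4%), 14.0% of those higher by over 0.5 log2 and 14.2% of all tested genes with a window. In the G2/M list it was present in 25 of 34 (73.5%), in the S phase list in 15.4%, and among the genes lower by over 0.5 log2 that are on neither list in 41 of 129 (31.8%). CCAAT was present in 54.1% of the lower genes, 41.8% of the higher ones and 43.5% of all tested genes. Its share was 79.4% in the G2/M list, 69.2% in the S phase list and only 47.3% among the lower genes on neither list. The E-box CACGTG, which MYC can bind, was present in 13.0% of the higher genes and 12.5% of all, and the FOXO motif GTAAACA in 2.46% of the higher genes, 2.52% of the lower genes and 2.93% of all tested genes. The windows of Ccnb2 (chr9:70421505-70421804), Cdc20 (chr4:118437294-118437593) and Cdca8 (chr4:124936868-124937167), all on the minus strand of GRCm38.p6 in RefSeq, are shown as those of 3 genes with large falls that hold both motifs. Capitals mark TTTGAA and CCAAT, or its complement ATTGG, and in Cdca8 the last pair of matches shares 1 base.
Ccnb2: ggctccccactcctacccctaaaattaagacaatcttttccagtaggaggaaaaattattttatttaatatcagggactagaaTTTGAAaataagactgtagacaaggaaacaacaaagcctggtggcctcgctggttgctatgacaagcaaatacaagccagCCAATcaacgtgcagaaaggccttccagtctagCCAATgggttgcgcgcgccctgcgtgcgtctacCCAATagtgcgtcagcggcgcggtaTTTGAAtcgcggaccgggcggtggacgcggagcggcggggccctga
Cdc20: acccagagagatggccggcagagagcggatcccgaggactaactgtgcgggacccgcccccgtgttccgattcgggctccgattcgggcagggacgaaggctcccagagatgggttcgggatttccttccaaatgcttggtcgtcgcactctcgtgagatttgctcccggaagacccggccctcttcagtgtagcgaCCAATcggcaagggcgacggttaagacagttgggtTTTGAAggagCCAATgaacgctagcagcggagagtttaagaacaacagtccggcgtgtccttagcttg
Cdca8: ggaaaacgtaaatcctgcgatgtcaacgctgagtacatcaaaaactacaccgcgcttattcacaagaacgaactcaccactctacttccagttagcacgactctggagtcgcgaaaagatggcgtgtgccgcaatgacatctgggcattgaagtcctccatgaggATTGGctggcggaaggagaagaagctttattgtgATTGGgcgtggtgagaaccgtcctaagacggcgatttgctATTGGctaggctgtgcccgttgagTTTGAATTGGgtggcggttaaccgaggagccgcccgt

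**Figure D3:**
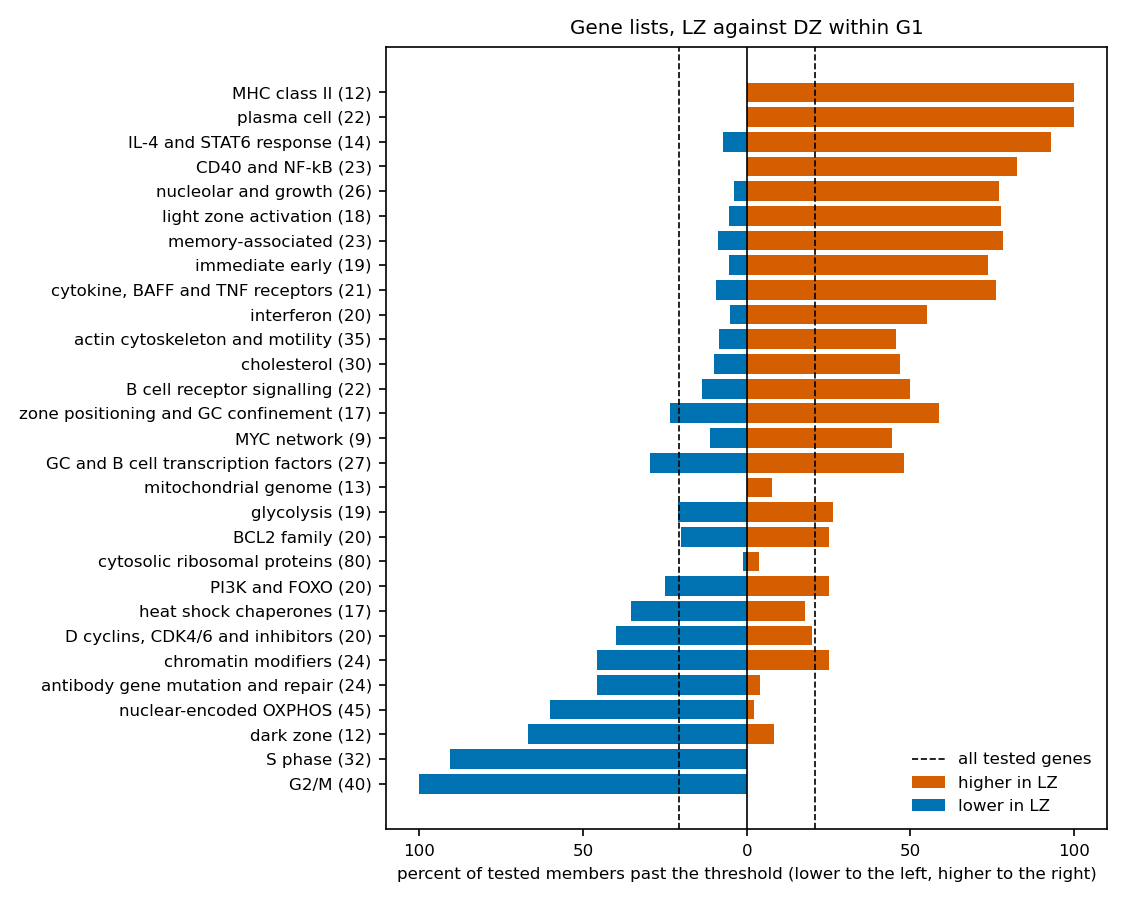
Share of tested members of each gene list that were higher (right) or lower (left) in LZ within G1, with the number tested in brackets and dashed lines at 20.8% and 20.5%, the shares over all tested genes. MHC class II and plasma cell genes were all higher, G2/M genes were all lower, and the mitochondrial genome and cytosolic ribosomal proteins had fewer calls than the background in both directions. Lists of other cell types are not drawn.

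Many genes of the cells that leave the GC were higher in LZ. All 22 tested plasma cell genes rose, with a median of 0.93. Of 23 memory-associated genes, 18 rose, 2 fell and 3 did not pass the threshold, with a median of 1.46. The summed CPM of the plasma cell list was higher in LZ in 6 of 6 libraries, but that of the memory-associated list in only 3 of 6. Slpi, a secreted protease inhibitor, had 32.9, 923 and 1610 CPM in LZ and 15.3, 114 and 253 CPM in DZ. It was higher in LZ in 6 of 6 libraries, with low levels in both Day14 libraries (log2 2.53 ± 0.24, adjusted p = 1.9e-07). Irf4, a transcription factor needed for plasma cells, had 16.2, 36.0 and 41.0 CPM in LZ and 1.65, 7.61 and 12.6 CPM in DZ, without overlap (log2 2.09 ± 0.19). Hsp90b1, a chaperone of the endoplasmic reticulum, differed by 1.49 ± 0.13, and Jchain, which joins IgM and IgA, by 0.91 ± 0.18 with LZ higher in 5 of 6 libraries. Klf2, a factor of recirculating B cells, had 29.8, 72.3 and 512 CPM in LZ and 10.9, 27.9 and 137 CPM in DZ (log2 1.67 ± 0.11). S100a6, a calcium-binding protein gene on neither list, differed by 1.94 ± 0.16. It stood at 203 and 239 CPM in LZ and 32.7 and 88.0 CPM in DZ of the Chimaera libraries. In the Day14 and Day7 libraries it stood at only 1.27 to 16.7 CPM in LZ, and at 0 CPM in DZ of both Day7 libraries. On the memory-associated list, Anxa2, which binds membranes, fell (log2 -0.96 ± 0.06). Beside these lists, 8 of 9 tested markers of naive follicular cells rose (median 0.90), 5 of 6 tested myeloid markers rose (Tyrobp, Fcer1g, Cd68, Mpeg1 and Ctsb) and both tested T cell markers rose (Lat and Lck). Lck stood at 81.1 to 159 CPM in LZ and 52.1 to 84.6 CPM in DZ while Cd3e, Cd3d and Cd3g stood at 2.65 CPM or less in both. The part of such cells in these results was not tested.

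Cells of both zones were spread over the deposited clusters in unequal shares. Clusters that carried plasma cell markers (plasma-like) held 2.11 to 10.5% of the LZ cells of a library and 0.640 to 1.24% of its DZ cells. Clusters that carried MYC and growth markers (MYC-high-like) held 2.31 to 26.3% of LZ cells and 0.567 to 3.27% of DZ cells. In the Day14 and Chimaera libraries, clusters with memory precursor markers held 6.35 to 35.8% of LZ cells and 2.56 to 10.2% of DZ cells. In the same 4 libraries, however, the clusters with light zone markers held 46.4 to 54.9% of the cells called LZ and 45.0 to 50.3% of those called DZ. In the Day7 and Day14 tables, 1 cluster each with G1 cells met the marker rule for red blood cells through the haemoglobin genes (median log2 ratios 7.44 and 0.51), and held 37.4% of LZ cells and 19.4% of DZ cells at Day7 and 18.8% and 17.6% at Day14. They are not called by that name here, since apart from 2 Day7 DZ barcodes no G1 cell of either zone held more than 23 haemoglobin UMIs at Day7 or 94 at Day14. Each cluster took only its highest-scoring class, and no Day7 cluster took the memory precursor class. The clusters were drawn on the same cells, and each share is a description.

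Without the plasma-like and memory-precursor-like clusters, 1763 genes were higher (18.7%) and 1869 lower (19.8%), 38.5% in all. At Day7 this choice left out the plasma-like cluster alone, and the cluster with 37.4% of LZ cells stayed in. Of 21 tested plasma cell genes, 14 were higher and 4 lower. Of 21 tested memory-associated genes 12 were then higher and 3 lower, with a median of 0.77, or 0.45 with zones balanced over clusters. Prg2, which encodes a granule protein, did not pass the threshold at -0.16 (adjusted p = 0.71, against 2.90 with all cells), Slpi stood at 0.19 and S100a6 at -0.15. Jchain was then lower in LZ (log2 -0.41). Ccnd2 stood at 3.19, Il4i1 at 2.76, Cd83 at 1.77 and Myc at 1.84 in those cells. With equal numbers of LZ and DZ cells taken from each deposited cluster, 907 genes were higher (10.0%) and 944 lower (10.4%). Ccnd2 then stood at 1.59, Myc at 0.93, Il4i1 at 2.18 and Cd83 at 1.44, and 3 of 26 growth genes were higher and 2 lower.

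Among the G1 cells whose share of S phase and G2/M UMIs was below the median of their library, 721 genes were higher in LZ (8.80%) and 564 lower (6.89%). The number of DZ cells was then 18 to 358 per library. Of the light zone activation list, 11 of 15 tested members were higher and the median was 1.08, against 0.80 with all G1 cells. The median of the NF-kB list was 0.83 (16 of 23 higher), against 0.70, and that of the immediate early list 0.44 (11 of 17 higher), against 0.63. Il4i1 stood at 3.28, Nfkbid at 3.36, Cd83 at 1.95 and Myc at 2.65, Cd86 stood at 0.61 and Zfp36l1 at 0.42, and Traf1 no longer passed (0.16, adjusted p = 0.31). Cxcr4 stood at -1.45. The division genes on the S phase and G2/M lists were themselves used to choose these cells, so that the choice bears on their values. Of these genes and others of division, Ccnb2 stood at -1.59 and Cdca8 at -1.27, while Cdc20 (-0.94), Hmmr (-0.57), Cep55 (-0.73) and Tpx2 (-0.59) no longer passed the threshold. On the G2/M list, 14 of 31 tested members were lower, and on the S phase list, 4 of 30 were higher and 1 lower. Ran stood at 0.04 and Mcm6, a subunit of the replicative helicase, at 0.21 in these cells, against -0.29 and -0.32 with all G1 cells.

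**Figure D4:**
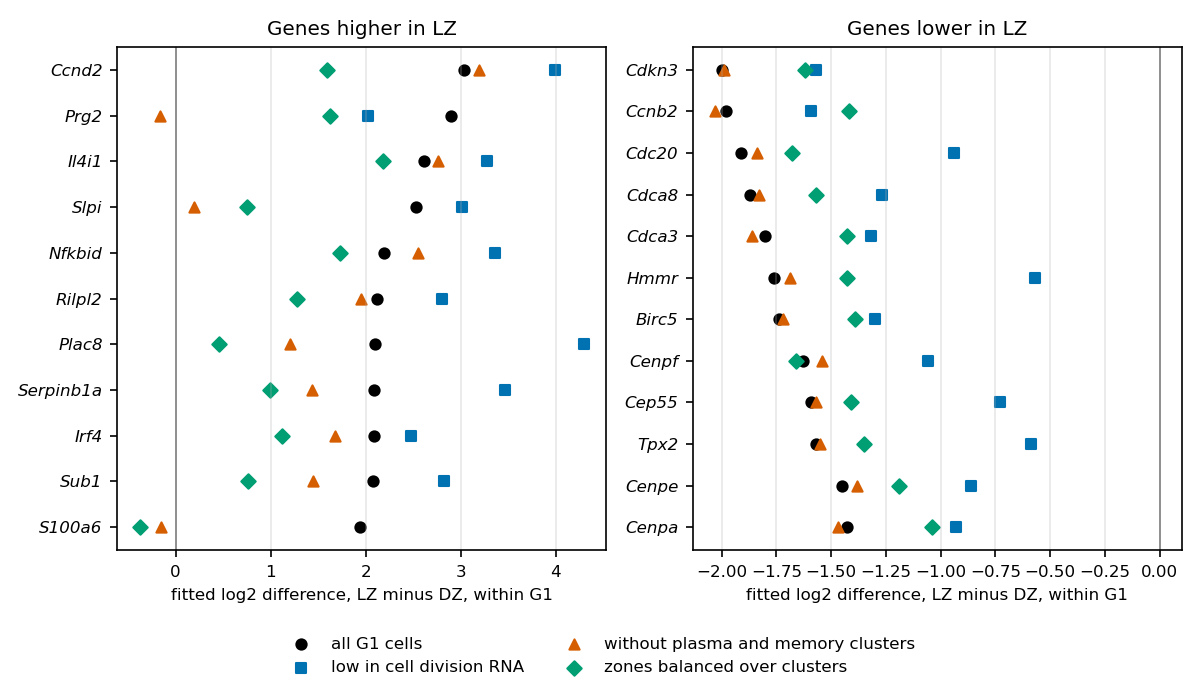
Fitted log2 difference, LZ minus DZ, of the reported genes among the 12 largest in each direction with all G1 cells and under 3 choices of cells (shapes). Prg2 and S100a6 lay below 0 without the plasma-like and memory-precursor-like clusters, Il4i1 stayed at 2.18 or above under each choice shown, and the division genes stayed below 0. S100a6 was not tested in the cells low in cell division RNA and has no point there.

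Metabolic genes differed little. Over all tested genes, 20.8% were higher in LZ and 20.5% lower. Of 45 nuclear genes of oxidative phosphorylation, 27 were lower in LZ and 1 higher, with a median of only -0.16. In the cells low in cell division RNA, 6 of the 45 were lower and 1 higher, with a median of -0.08. Of all genes tested in those cells, 6.89% were lower and 8.80% higher. Atp5b, a subunit of ATP synthase, stood at 441, 794 and 883 CPM in LZ and at 563, 921 and 969 CPM in DZ (log2 -0.25 ± 0.05), and Cox4i1, a subunit of cytochrome c oxidase, differed by -0.18 ± 0.04. Of 13 genes of the mitochondrial genome, 1 rose (mt-Nd6) and 0 fell. Of 19 glycolysis genes 5 were higher and 4 lower, shares close to those over all genes. The higher ones included Aldoa (log2 0.26 ± 0.04) and Ldha (0.19 ± 0.05), and the lower ones Gapdh (-0.28 ± 0.04). Cholesterol genes rose in 14 of 30 cases and fell in 3. Srebf2, a master regulator of sterol synthesis, differed by 0.25 ± 0.06 and Apoe, which carries lipid, by 0.55 ± 0.11. Of 20 BCL2 family and death genes, 5 rose and 4 fell, shares of the size seen over all genes, and Mcl1 (0.00) and Bax (0.11) did not pass the threshold. Interferon response genes rose in 11 of 20 cases, such as Irf1 (0.56 ± 0.08), and fell in 1, Ifi27l2a (-0.27 ± 0.09). Actin and motility genes rose in 16 of 35 cases and fell in 3, and Actb, the most abundant, differed by 0.21 ± 0.04. The summed CPM was higher in LZ in 5 of 6 libraries for the cholesterol list. It was higher in 3 of 6 for the interferon list and in 4 of 6 for the actin and motility list.

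Immunoglobulin constant genes were measured in the 4 Day14 and Chimaera libraries, in a fit of 10465 genes of which 1539 were higher (14.7%) and 1588 lower (15.2%), 29.9% in all. Ighm, of IgM, stood at 1430 CPM (Chimaera KO), 2040 (Chimaera control), 2240 and 1720 CPM (Day14) in LZ and at 984, 1020, 1500 and 1250 CPM in DZ of the same libraries. It was higher in LZ in 4 of 4 (log2 0.64 ± 0.08, adjusted p = 0.00039). Ighg2c, of IgG2c, stood at 128, 338, 211 and 294 CPM in LZ and at 65.6, 85.4, 31.0 and 94.1 CPM in DZ, again higher in 4 of 4 (log2 1.82 ± 0.21, adjusted p = 0.00022). Ighd, Ighg3, Igha, Igkc, Iglc2 and Iglc3 also rose, while Ighg1 (log2 0.55, adjusted p = 0.088), Ighg2b (0.95, adjusted p = 0.060), Ighe (0.59, adjusted p = 0.49) and Iglc1 (0.15, adjusted p = 0.30) did not pass. The IgG genes resemble each other, so reads may be split between them. The calls of Ighg3, Igha, Igkc and Iglc3 were lost when 1 of the libraries was left out. Ighg3 and Igha were higher in LZ in only 3 of 4 libraries, with Igha at 11.8 CPM in LZ and 26.8 CPM in DZ of the second Day14 library. Plasma-like clusters held 2.11 to 7.34% of LZ cells and 0.640 to 1.24% of DZ cells in these 4 libraries. Immunoglobulin genes were not fitted without those clusters, and the part of such cells was not tested.

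The zone difference within G1 was then set against that among cells called S or G2/M of the same libraries. Among those cycling cells, 2228 of 9807 genes were higher in LZ (22.7%) and 2877 lower (29.3%). The difference between G1 and cycling cells passed the threshold for 1388 genes in the upward direction (14.2%) and 788 downward (8.04%), or for 890 without the Chimaera KO library and 903 without the Chimaera control library upward. It passed for 324 and 167 genes with cells thinned to 1000 UMIs, and for 797 and 1440 when the sums were scaled by total UMIs, which shifts the median of all genes by -0.092.

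Plasma cell and memory-associated genes stood further apart by zone in G1 than in cycling cells, with 21 of 22 and 16 of 23 past the threshold upward and 0 downward. Against S phase cells alone, 8 of 22 and 5 of 23 passed upward and 0 downward, beside 336 upward and 142 downward of all 9671 tested genes. Slpi, of the plasma cell list, differed between zones by 2.53 in G1 and 0.63 in cycling cells. On neither list, Prg2 differed between zones by 2.90 in G1 and 0.07 in cycling cells (difference 2.83, adjusted p = 3.1e-06) and S100a6 by 1.94 and 0.35. H2-Aa differed by 0.81 in G1 and 0.28 in cycling cells (adjusted p = 1.1e-07), and 11 of 12 MHC class II genes passed upward. Within S phase alone H2-Aa differed by 0.40, and against those cells 8 of 12 MHC class II genes passed upward and 0 downward. Ccng2, an atypical cyclin tied to arrest, differed by 0.15 in G1 and -1.57 in cycling cells (difference 1.73, adjusted p = 1.8e-10), and Cdkn2d, the CDK4 inhibitor p19, by -0.28 and -1.88. Values of Ccng2 and Cdkn2d against S phase cells alone are not given here, and cycling cells of the zones differed in the share called S. In the other direction, Ung differed by 0.09 in G1 and 1.40 in cycling cells (difference -1.31, adjusted p = 3.1e-10), and the replication genes Cdca7, Cdc6, Gins2 and Dscc1 had differences of -1.09 to -0.98. Against S phase cells alone these were smaller, at -0.38 for Cdca7 and -0.30 for Gins2, which passed, and -0.21 for Cdc6 and -0.28 for Dscc1, which did not, and Ung stood at -0.31 without passing. Within S phase the zone difference was -0.24 for Cdc6, -0.26 for Gins2, -0.23 for Dscc1, 0.16 for Cdca7 and 0.40 for Ung. On the S phase list, 29 of 32 genes were lower in LZ within G1, and 20 were higher and 4 lower among cycling cells. Within S phase alone, 27 were lower and 2 higher, with a median of -0.25, as against -0.41 in G1 and 0.17 among all cycling cells. Growth genes were higher in LZ in both, with a median zone difference of 0.21 in G1 and 0.55 in cycling cells, and 20 of 26 passed the threshold downward, or 4 of 26 against S phase cells alone. Myc (1.78 in G1 and 1.80 in cycling cells), Ccnd2 (3.03 and 2.79) and Cd83 (1.62 and 1.37) did not pass this test. Of the cycling cells, 3384 of 3728 in LZ and 7273 of 18513 in DZ were called S. Within S phase, 1589 genes were higher in LZ (16.4%) and 2206 lower (22.8%), 39.2% in all. Against S phase cells alone, 336 of 9671 genes passed upward and 142 downward.

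**Figure D5:**
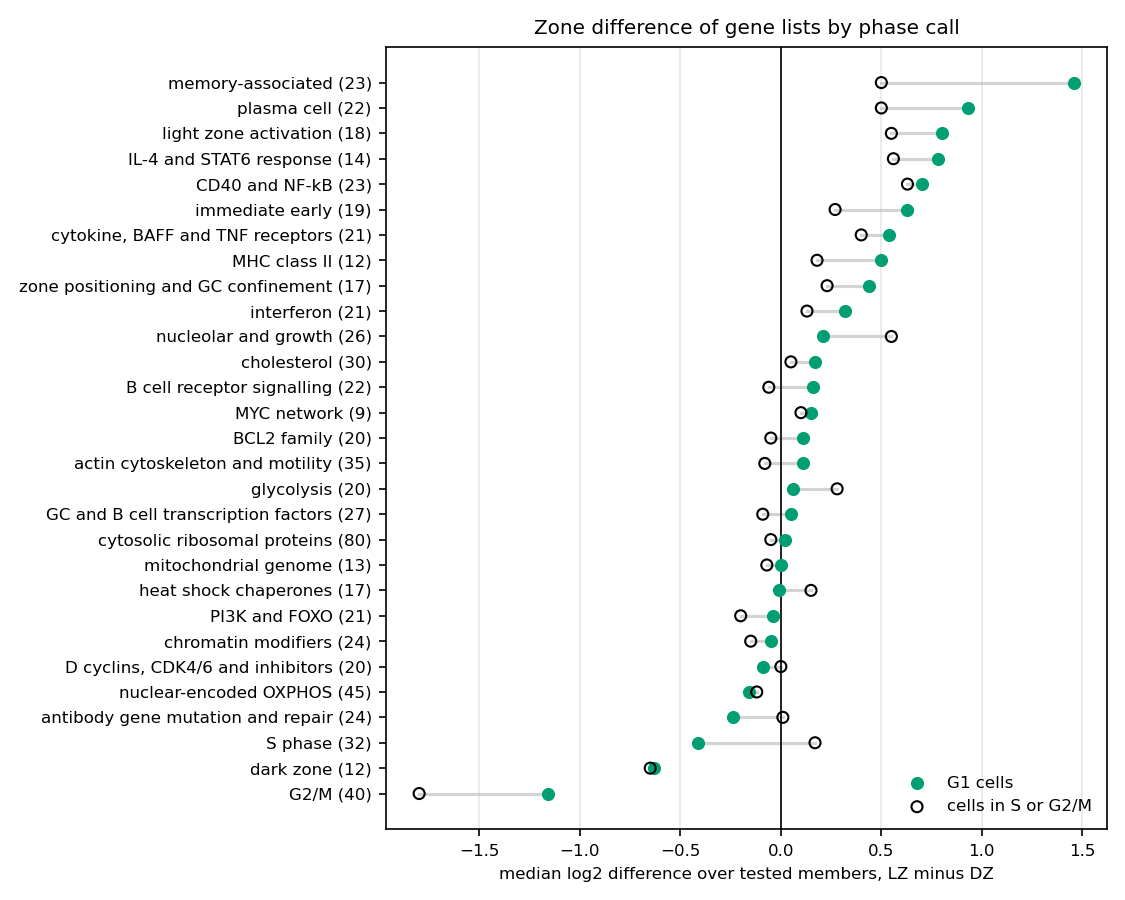
Median log2 difference, LZ minus DZ, over the tested members of each gene list (number in brackets) in G1 cells (filled) and in cells called S or G2/M (open). The S phase list lies below 0 in G1 and above 0 in cycling cells (within S phase alone, its median was -0.25), while the memory-associated list lies furthest to the right in G1.

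The zone difference in the Chimaera libraries minus that in the Day14 libraries passed for 442 genes upward (4.61%) and 156 downward (1.63%), 6.24% in all. Whether the zone difference within G1 differs between the time points was tested as Day14 minus Day7. Few genes passed, 51 upward (0.532%) and 99 downward (1.03%), 1.57% in all. Slpi differed between zones by 1.18 at Day14 and 3.24 at Day7 (difference -2.06 ± 0.29, adjusted p = 8.6e-06), Irf4 by 1.73 and 3.57, Jchain by -0.11 and 1.41, Glipr1 by 0.44 and 1.68 and Fam46c by -0.14 and 0.99. Jchain stood at 407 and 312 CPM in LZ and 386 and 384 CPM in DZ of the Day14 libraries, and at 3660 and 3790 CPM in LZ and 1250 and 1560 CPM in DZ of the Day7 libraries. Without the plasma-like and memory-precursor-like clusters the difference was -0.15 for Slpi, -0.64 for Irf4 and -0.34 for Jchain, of which Jchain alone passed. At Day7 only the plasma-like cluster was left out. Rrm2, a subunit of ribonucleotide reductase, differed by -0.73 at Day14 and -1.76 at Day7 (difference 1.02 ± 0.20, adjusted p = 0.0011). The haemoglobin genes Hba-a1, Hba-a2, Hbb-bs and Hbb-bt had the largest differences upward, and 2 DZ barcodes of Day7, 1 per library, held 19998 of the 20410 haemoglobin UMIs of the Day7 DZ cells in G1. Without those barcodes Hbb-bs stood at -0.21 and 47 genes passed upward and 96 downward. Cd83 and Myc did not pass (differences 0.11 and 0.13). Time point, sorting gate, depth and table construction cannot be told apart here, and without either Day14 library 8 or 9 genes passed upward and 16 or 20 downward, 33 and 81 without the first Day7 library, and 23 and 26 without the second.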

How the data were processed

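The deposited matrices hold whole-number UMI counts, not normalised by the authors, and cell tables give a library, a phase, a zone and a cluster for each cell. Cell Ranger, Seurat and the mm10 build are named per the submitters' processing notes, with versions not given in the sources used here, and how phase and zone were called is not stated. The tables list 15763 (Chimaera), 31053 (Day14) and 27998 (Day7) symbols, of which 14548 are in all 3, and their cells hold 554 to 19996, 500 to 9998 and 7290 to 49966 UMIs, so depth differs between data sets. All deposited cells were kept, no doublet caller was run, and 1 column of the cell tables was not used.

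Counts of G1 cells were summed by library and zone (12 sums) over the shared genes. Zones were compared as LZ over DZ with edgeR 4.0.16 in R 4.3.3 (TMM, filterByExpr by zone, quasi-likelihood, library as a block, Benjamini-Hochberg adjusted p under 0.05). The block pairs both zones of 1 library and comes from the cells' own library. Standard errors are the absolute log2 difference over the square root of F. CPM values are TMM-scaled. The Day14 minus Day7 test used a zone effect per data set, and the G1 minus cycling test used 4 sums per library. Single values were tested with exact two-sided sign flips over libraries. Alternatives used DESeq2 1.42.0, limma 3.58.1 (pseudocount 1 CPM), thinning to 1000 UMIs and other choices of cells. Intervals and shares of cells cover counting error only. Clusters were named from fixed markers with a median log2 ratio of at least 0.5 and at least 3 markers raised.

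The cells, the 33 gene lists and the tests were chosen with earlier results of these data known, so that no list is independent evidence. The text names, by rule, the 12 genes with the largest difference each way among those called with 1 sign in 6 libraries and at least 20 CPM, the 4 members of each list with the highest CPM, 5 genes each way per difference test, and Cxcr4, Cd83, Cd86, Foxo1, Myc, Bcl6, Ccnd2 and Ccnd3. Single list members that went against their list, and counts of 5 or fewer, were named after their values were seen. Of the 160 genes the rule names, the 95 described were picked with their values known, and some are not reported.

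On simulated counts the zone test recovered 88% of genes changed by 0.5 log2 and 100% of those changed by 1, with 9 false calls among 9310 genes. Changes were planted in 100 genes per size, only among genes with higher counts, and the spread was that fitted to these data. These rates therefore do not cover genes with low counts. The Day14 minus Day7 test recovered 84% at 1 and 100% at 2, and the G1 minus cycling test 73% at 0.5 and 98% at 1. Gene coordinates are those of GENCODE M21 (GRCm38), which matched 9500 of the tested symbols, and 7567 tested genes had a promoter window in RefSeq.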

Additional observations from a re-analysis of the deposited data

Results flagged for a closer look

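In the Chimaera control library Ccnd3 stood apart from the other libraries, with a log2 difference, LZ minus DZ, of -0.71 against -0.49 to -0.46 in the other 5. The gap was 0.88 of the whole range. Of 36 values examined in this way, chance alone flags about 1 in 20.

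The zone difference within G1 differed between the time points in edgeR's test of Day14 minus Day7 for 10 named genes. Slpi differed by -2.06 (1.18 at Day14 and 3.24 at Day7), Irf4 by -1.84 (1.73 and 3.57), Jchain by -1.52 (-0.11 and 1.41), Glipr1 by -1.24 (0.44 and 1.68) and Fam46c by -1.13 (-0.14 and 0.99). Plasma-like clusters held 2.11 and 3.09% of LZ cells at Day14 and 10.5% in both libraries at Day7. Rrm2 differed by 1.02 (-0.73 and -1.76). The haemoglobin genes differed by 13.02 (Hba-a2), 11.62 (Hba-a1), 9.83 (Hbb-bs) and 3.69 (Hbb-bt), and 2 barcodes held 19998 of the 20410 haemoglobin UMIs of the Day7 DZ cells in G1.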

How the results depend on the processing

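The zone comparison within G1 called 1995 genes higher and 1968 lower. Counts stayed within 1.5 times of these with other scalings, no low-count filter, DESeq2 (1355 and 1574), cells weighted alike, no deepest cells, within Chimaera, without haemoglobin-rich barcodes and without each library in turn (1721 to 1915 higher and 1650 to 1856 lower). They were 744 and 669 with cells thinned to 1000 UMIs, 371 and 208 when a change over 0.5 log2 was required, 721 and 564 with only cells low in cell division RNA, 1197 higher within Day14, 1294 and 1297 within Day7, and 907 and 944 with zones balanced over clusters. Without the replicate block, which pairs the zones of a library, they were 153 and 102. The Day14 minus Day7 test called 51 genes upward and 99 downward, 6 and 15 with DESeq2, 4 and 10 after thinning, 80 upward without a filter, and 8 to 33 upward and 16 to 81 downward without 1 library. The G1 minus cycling test called 1388 and 788, 336 and 142 against S phase alone, 324 and 167 after thinning, 797 and 1440 with total UMI scaling, and 890 to 1214 and 615 to 939 without 1 library. The difference in the S and G2/M list was -0.84 to -0.79 without 1 library (exact sign-flip permutation p = 0.0625, the smallest that 5 libraries allow).

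Of 2324 values of described genes under alternatives, 2064 kept direction and side of the threshold, 214 lost the call, 26 gained it and 20 changed sign. These 20 were Prg2 (-0.16), S100a6 (-0.15), Jchain (-0.41) and Fam46c (-0.52) without plasma and memory clusters, S100a6 (-0.38), Jchain (-0.10) and Fam46c (-0.49) balanced over clusters, Ran (0.04), Rrm2 (0.02), Mcm6 (0.21), Cdca7 (0.40) and Gins2 (0.37) in cells low in division RNA, Pim1 (0.03) within Day7, Jchain (-0.11), Fam46c (-0.14), Hbb-bt (0.02) and Hba-a2 (0.23) within Day14, Ifi27l2a (0.20) and Hbb-bt (0.08) within Chimaera, and Hbb-bs in the Day14 minus Day7 test (-0.21) without haemoglobin-rich barcodes. The cause was not tested. Balancing over clusters and leaving out haemoglobin-rich barcodes were chosen after seeing the data. The smallest sum, the DZ of the first Day7 library, holds 106 cells, and depth limits what thinned counts can show.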
